A study of Mus musculus with 10 samples.

Results

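Beta chain clonotypes with hydrophobic amino acids at both residue 6 and residue 7 of the third complementarity determining region (CDR3) were examined in splenic regulatory T (Treg) cells. A clonotype counted as a doublet when its CDR3 ended like a TRBJ gene (EVFF, DYTF, TLYF, RLFF, APLF, PLYF, EQFF, QLYF, TQYF or EQYF). Residues 6 and 7, counted from the first cysteine as 1, both had to be cysteine, phenylalanine, isoleucine, leucine, methionine, valine, tryptophan or tyrosine. The rule found 2560 of 193012 beta chain rows (1.33%), in a series of 387286 rows that also holds alpha chains.

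The series compares 5 samples labelled CNS4KO with 5 labelled CNS4Flox, a design aimed at how a Foxp3 enhancer shapes the Treg receptor repertoire. CNS4 is an enhancer of Foxp3, the gene for the transcription factor that defines Treg cells. CNS4KO mice lack it (treatment label KO) and CNS4Flox mice carry it flanked by loxP sites (treatment label WT), and cells were used directly without treatment. Age, sex and the number of cells per sample are not given in the sources used here, nor is whether each sample came from its own mouse, so p-values measure the spread between samples, which may in part be technical. Receptor sequences hold no marker gene, so neither the Treg label nor the deletion was checked.

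The CDR3 of the beta chain is built by joining a V, a D and a J gene, with bases trimmed from the ends and untemplated bases inserted at the joints. Its middle residues lie over the peptide that a major histocompatibility complex molecule presents. Hydrophobic residues at positions 6 and 7 are known to favour self-reactive receptors, and self-reactive thymocytes are the source of many Treg cells. No conventional T cells are in the series, so the doublet rate of Treg cells was not set against theirs.

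The commonest residue pairs are shown by their most abundant clonotype, with the codons of residues 6 and 7 in capitals, because these codons show which joined segment wrote the doublet. Pairs are named by their amino acid letters at 6 and 7 (Y tyrosine, W tryptophan, V valine, L leucine).
YW, TRBV31 with TRBD2 and TRBJ2-1: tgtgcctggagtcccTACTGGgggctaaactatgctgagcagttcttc
VW, TRBV12-2 with TRBD2 and TRBJ2-1: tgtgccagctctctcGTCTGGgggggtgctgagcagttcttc
VL, TRBV31 with TRBD2 and TRBJ2-7: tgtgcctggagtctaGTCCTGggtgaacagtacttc
LL, TRBV31 with TRBD2 and TRBJ2-2: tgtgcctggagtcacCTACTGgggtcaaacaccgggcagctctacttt
WV, TRBV3 with TRBD2 and TRBJ2-5: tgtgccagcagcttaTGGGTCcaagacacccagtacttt
LW, TRBV19 with TRBD2 and TRBJ2-5: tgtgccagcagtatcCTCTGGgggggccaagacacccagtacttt
The longest stretches matched to each D gene in the deposited tables, shown to place those codons, were the following.
TRBD2, in 1448 clonotypes: gggactggggggg
TRBD2, in 668 clonotypes: ggactgggggggc
TRBD1, in 2160 clonotypes: gggacaggggg
The TRBD2 stretch holds actgg, which reads as tryptophan or leucine depending on the frame, and the TRBD1 stretch does not. The VL clonotype above is an exception, as its D match, agtcc, reads against the TRBD2 stretch and holds the whole valine codon and only part of the leucine codon.

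Total counts were 61793 to 95853 per library, of which 19199 to 34833 belonged to beta chains. CNS4KO replicate 5 and CNS4Flox replicate 3 stood apart before any comparison. They shared 821 beta clonotypes by nucleotides, against 96 to 262 in the 44 other pairs of libraries. They shared 5 doublet clonotypes, against 0 to 3 in the other pairs. Tested results that rest on sharing or on clone size were therefore also computed without both libraries. Untested descriptions of sharing were not.

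Doublets made up a similar share of beta clonotypes in all 10 libraries and did not separate the groups. The share of distinct clonotypes was 1.39%, 1.335%, 1.42%, 1.32% and 1.24% in CNS4KO replicates 1 to 5. In the CNS4Flox replicates, in that order, it was 1.28%, 1.38%, 1.27%, 1.32% and 1.34%. The ranges overlap, and the 95% Wilson intervals, which cover counting error only, ran from 1.11% to 1.62% over the 10 libraries. The group means were 1.34% ± 0.0688 in CNS4KO against 1.32% ± 0.0475 in CNS4Flox (SD, n = 5 samples each, two-sided exact permutation p = 0.548, adjusted p = 0.730 over 12 values). By counts, doublets held 1.24% ± 0.101 of the beta chain in CNS4KO against 1.28% ± 0.0816 in CNS4Flox (SD, n = 5 samples each, exact permutation p = 0.476, adjusted p = 0.730).

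The same residues were counted at neighbouring positions among clonotypes long enough to hold them. Hydrophobic pairs were rarest at residues 4 and 5, at 0.111% ± 0.0312 in CNS4KO against 0.113% ± 0.0234 in CNS4Flox (SD, n = 5 samples each). They were commonest at residues 5 and 6, at 5.50% ± 0.295 and 5.38% ± 0.182 (SD, n = 5 samples each). At residues 7 and 8 they held 1.34% and 1.29%, at 8 and 9 they held 1.41% and 1.40%, and at 9 and 10 they held 3.37% and 3.29%. None of the 6 windows passed the test between the groups (exact permutation, smallest adjusted p = 0.821).

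Of 64 possible pairs, 50 occurred, and a few made up most of the set. YW was found in 342 clonotypes, VW in 310, VL in 204, LL in 170, WV in 151 and LW in 141, together 51.5% of doublets. Tryptophan was present in 48.1% of doublets, whereas methionine occurred in 56 clonotypes and cysteine in 5. At residue 6, valine led with 29.1% of doublets, followed by leucine with 23.9% and tyrosine with 18.7%. At residue 7, tryptophan led with 37.3%, followed by leucine with 21.1% and tyrosine with 17.8%. In all, 23 pairs were present in every library.

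The common pairs varied between libraries without setting the groups apart. The CNS4KO replicates 1 to 5 held 28, 21, 35, 49 and 39 YW clonotypes, and the CNS4Flox replicates, in that order, 21, 47, 41, 32 and 29. As a share of doublets it was lowest in CNS4Flox replicate 1, at 8.79%, and highest in CNS4KO replicate 4, at 17.7%. VW was lowest in CNS4KO replicate 1, at 9.42% of doublets, and highest in CNS4Flox replicate 5, at 17.2%. Of 206 residue pairs of any kind at 6 and 7 tested with edgeR's quasi-likelihood test, 0 were called (0% at an adjusted p under 0.05), and 12 had an unadjusted p under 0.05. The 10 hydrophobic pairs with enough clonotypes for the test held 0 calls and 0 at an unadjusted p under 0.05, and DESeq2 called 0 of the 206. Of these 10 pairs, 5 were higher and 5 lower in CNS4KO, with a median log2 difference of -0.03, against -0.01 over all pairs tested. With no filter, all 50 hydrophobic pairs seen entered, of which 28 were higher and 22 lower with a median of 0.06. Of these, 1 had an unadjusted p under 0.05 and 0 were called (smallest edgeR adjusted p = 0.837). In the filtered fit, the smallest p among hydrophobic pairs belonged to VY, at a log2 difference of -0.44 ± 0.28 (SE, edgeR adjusted p = 0.748), and to IY, at 0.42 ± 0.27 (SE, edgeR adjusted p = 0.748).

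Residue 7 was most often written by D. Its codon lay wholly within a D match in 49.5% of doublets, within a J match in 13.8% and within inserted bases in 10%, and was mixed in the remaining 26.8%. In other beta clonotypes the D share was close to that, 49.4%, but the D genes differed in what they wrote. Where the residue 7 codon lay wholly within a TRBD2 match, 35.7% of 46346 clonotypes had a hydrophobic residue there, tryptophan in 22.2% and leucine in 13.4%. Within a TRBD1 match, 0.315% of 48908 clonotypes did, and glycine led with 47.1%. Of 956 doublets with tryptophan at 7, 894 (93.5%) took it whole from a TRBD2 match, as did 365 of 540 with leucine at 7.

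Residue 6 was less often written whole by D in doublets than in other beta clonotypes. Its codon was a mixture of D, J and inserted bases in 47.9% of doublets, against 26.2% of other beta clonotypes. It lay wholly within D in 11.9%, against 44.6% of the others, and wholly within inserted bases in 14.7%, against 6.18%. At least 1 of its bases lay in the V match in 23.6% of doublets and 20.3% of the others. YW shows how a pair arises from these parts: 334 of its 342 clonotypes (97.7%) used the codons tac and tgg, and in 322 2 of the 3 bases of the tyrosine codon lay in the D match. In the YW sequence printed above the D match is actggggg, so the tyrosine codon runs into the start of that match. VW used gtc and tgg in 86.1% of its clonotypes, and 64.5% had at least 1 base of the valine codon in the V match. WV differed in that its first residue was the D-encoded one, with the whole tryptophan codon in the D match in 134 of 151 clonotypes.

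Taken as a set, pairs did not follow the frequencies of their residues taken apart, though some pairs did. A hydrophobic residue stood at 6 in 14.3% and at 7 in 15.98% of beta clonotypes, whose product, 2.29%, exceeds the 1.33% of clonotypes that held both. The ratio of the observed share to the product was 0.580 ± 0.0156 (SD, n = 10 libraries) and below 1 in every library. Against that, YW was seen at 2.47 ± 0.400 times the product of its residues' shares, IY at 3.22 ± 1.08 times and FY at 2.72 ± 1.46 times (SD, n = 10). Other pairs lay near the product, among them VW at 0.974 ± 0.188, VY at 1.04 ± 0.442 and YY at 1.02 ± 0.370 times (SD, n = 10). WW lay at the other end, at 0.0522 ± 0.0276 times the product, with 23 clonotypes in all, although tryptophan is the commonest hydrophobic residue at 7. These ratios describe the tables and were not tested.

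D names differed between doublets and the remaining beta clonotypes in every library. The D name, the J name, the length and the number of inserted bases are read from the same bases that define a doublet, so their differences from other beta clonotypes are given as descriptions, with no test. TRBD2 (chromosome 6, 41542163 to 41542176, GRCm38, the assembly named mm10 in the submitters' processing notes) accounted for 73.7% ± 1.67 of doublets with a named D, and for 35.01% ± 0.490 of other beta clonotypes (SD, n = 10). The difference of 38.7 percentage points was positive in 10 of 10 libraries. In CNS4KO the TRBD2 share was 73.4%, 74.0%, 73.3%, 72.1% and 77.2% in replicates 1 to 5. In CNS4Flox it was 72.8%, 72.9%, 72.6%, 76.0% and 72.4%, so the groups overlap (exact permutation p = 0.524, adjusted p = 0.730). By rate, 2.72% of TRBD2 clonotypes and 0.537% of TRBD1 clonotypes (TRBD1 lies at 41533201 to 41533212 of the same chromosome) were doublets.

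D names rest on short matches. TRBD1 matches of doublets had a median of 3 bases, and 54.0% of them read against the long TRBD1 stretch rather than along it, compared with 9.93% in other beta clonotypes. TRBD2 matches of doublets had a median of 7 bases, and 96.9% read along the TRBD2 stretch. With matches of at least 6 bases, a choice made after seeing the data, the TRBD2 share of doublets was 94.5% in CNS4KO and 93.6% in CNS4Flox, and the difference from other beta clonotypes was 45.7 percentage points. That cut-off lies above the median TRBD1 match of doublets and below their median TRBD2 match, so it drops TRBD1 doublets more. The higher share is therefore set in part by the cut-off and is no check of the D names.

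J use followed the same lines. Genes of the TRBJ2 cluster, which lies downstream of TRBD2, held 88.3% ± 1.73 of doublets and 68.1% ± 0.973 of other beta clonotypes (SD, n = 10), higher in 10 of 10 libraries. CNS4KO doublets used the cluster in 87.9% ± 1.94 and CNS4Flox doublets in 88.8% ± 1.57 of cases (SD, n = 5 samples each, exact permutation p = 0.413, adjusted p = 0.730). Within the TRBJ2 cluster alone, 2.82% of TRBD2 clonotypes and 0.681% of TRBD1 clonotypes were doublets. Within the TRBJ1 cluster the rates were 1.58% and 0.356%. TRBD2 lies downstream of the TRBJ1 genes (41533864 to 41535606), yet 5124 beta clonotypes carry both names, 81 of them doublets. The names of these clonotypes are therefore uncertain, and 1.58% cannot be read as a secure TRBD2 rate.

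Among J genes the doublet rate was highest for TRBJ2-1, at 2.26% ± 0.419 of its clonotypes, and lay at 1.87% ± 0.272 for TRBJ2-5 and 1.83% ± 0.196 for TRBJ2-7 (SD, n = 10). TRBJ2-3 and TRBJ2-4 followed with 1.43% and 1.39%, and TRBJ2-2 had 1.08%. Neighbours in this order overlap between libraries. In the TRBJ1 cluster, TRBJ1-6 had 1.05% ± 0.435, TRBJ1-4 0.787% ± 0.236, and TRBJ1-1, TRBJ1-3, TRBJ1-5 and TRBJ1-2 between 0.249% and 0.379%. The name TRBJ1-6 does not occur in the tables and was set here by the end PLYF, which renamed 72 doublets. TRBJ2-7 contributed the most doublets, 708, ahead of TRBJ2-5 with 457 and TRBJ2-1 with 449. With doublet and other clonotypes of each J gene as separate features, edgeR's quasi-likelihood test called 0 of 18 features (0%) between the groups, with 0 at an unadjusted p under 0.05, and 0 of the 6 doublet features. DESeq2 also called 0 of 18.

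Among V genes TRBV24 had the highest doublet rate. Its clonotypes held doublets at 5.38% ± 2.34 (SD, n = 10), with every library at 2.50% or above. Of its 56 doublets, 35 had tyrosine at 6, and in all 35 that codon lay partly in the V match. TRBV24 (chromosome 6, 41218091 to 41218557) gave 1034 beta clonotypes in all. TRBV12-1 had 1.83% ± 0.281, TRBV17 1.75% ± 0.630 and TRBV30 1.70% ± 0.849, and the lowest rates were those of TRBV15 (0.711% ± 0.195), TRBV2 (0.966% ± 0.432) and TRBV5 (1.002% ± 0.378). By number, TRBV31 led with 273 doublets among its 21088 beta clonotypes.

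No V gene's doublets passed the test between the groups. edgeR's quasi-likelihood test called 1 of 33 features (3.03%), the other clonotypes of TRBV12-1, and 0 of the 11 doublet features, of which 0 had an unadjusted p under 0.05. DESeq2 called 0 of the same 11. Of these 11, 8 were higher and 3 lower in CNS4KO, with a median log2 difference of 0.13, against -0.02 over all features. With no filter, 22 V genes entered, of which 10 were higher and 12 lower with a median of -0.07, and 2 doublet features had an unadjusted p under 0.05 (smallest edgeR adjusted p = 0.0997). In the filtered fit, the smallest p among them was that of TRBV13-2, whose doublets were 0.109% ± 0.0291 of beta clonotypes in CNS4KO and 0.0830% ± 0.00509 in CNS4Flox (SD, n = 5 samples each). The log2 difference was 0.38 ± 0.20 (SE, edgeR adjusted p = 0.373).

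Doublets were slightly longer than other beta clonotypes with more of them at either end of the length range. Their CDR3s averaged 13.95 ± 0.151 residues, against 13.72 ± 0.0215 (SD, n = 10), longer in 9 of 10 libraries. Lengths of 12 to 15 residues held 73.2% of doublets and 87.0% of the others, and 16 or more held 17.3% and 7.98%. At 11 residues there were 8.05% of doublets and 4.13% of the others. The group means were 13.95 and 13.94 residues (exact permutation p = 0.921).

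Between 11 and 17 residues the doublet rate was lowest at 13. It was 2.48% ± 0.572 at 11 residues, 1.15% ± 0.281 at 12, 0.746% ± 0.123 at 13, 1.18% ± 0.109 at 14, 1.499% ± 0.200 at 15, 2.78% ± 0.429 at 16 and 3.42% ± 1.49 at 17 (SD, n = 10). The origin of residue 7 changed along with it. At 11 residues, 190 of 206 doublets took the codon whole from J and 0 from D, whereas at 15 residues 467 of 550 (84.9%) took it whole from D and 0 from J. Tyrosine at 7 was mostly of the J kind, as 321 of its 455 doublets (70.5%) took it whole from a J match, with a median length of 11. At 9 and 10 residues 0 of 187 and 0 of 1405 clonotypes were doublets, because the rule allows none there. The first residue of the required CDR3 end falls on a doublet position at these lengths. None of the listed ends starts with a hydrophobic residue, so these zeros are not measured rates. The 36 doublets of 7 or 8 residues hold the hydrophobic end of the J gene itself at the doublet positions.

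Doublets also carried more inserted bases. They averaged 4.42 ± 0.256 bases outside any V, D or J match, against 3.83 ± 0.0456 in other beta clonotypes (SD, n = 10), higher in 10 of 10 libraries. The group means were 4.35 ± 0.255 in CNS4KO against 4.48 ± 0.268 in CNS4Flox (SD, n = 5 samples each, exact permutation p = 0.444, adjusted p = 0.730). Short D matches enter this count, since a base is called inserted when no match covers it. So do clonotypes with the end PLYF, whose J match is to another J gene, as for 72 doublets. With only J names that fit the CDR3 end, doublets averaged 4.065 inserted bases in CNS4KO and 4.196 in CNS4Flox. The difference from other beta clonotypes kept its direction. The same limit holds for the sources of the codons above and for the classes of inserted bases below.

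Most doublets were seen with a count of 1. This was so for 81.5% of them, and only 29 of 2560 had a count of 5 or more. Compared with other beta clonotypes in the same library, doublets had fewer counts each, 1.31 ± 0.142 against 1.39 ± 0.188 (SD, n = 10), lower in 8 of 10 libraries (exact sign-flip permutation p = 0.0332, adjusted p = 0.0332 over 7 values). Without CNS4KO replicate 5 and CNS4Flox replicate 3 the difference of -0.0772 became -0.0661 and no longer passed (adjusted p = 0.133). It also failed to pass when CNS4KO replicate 1, 3, 4 or 5 or CNS4Flox replicate 3 was left out alone, with adjusted p = 0.0664 each time. The share with a count of 1 was 81.5% ± 6.22 for doublets and 79.2% ± 6.19 for the others (exact sign-flip permutation, adjusted p = 0.0182), and without those 2 libraries the difference fell from 2.25 to 1.49 percentage points (adjusted p = 0.0729). The 7 values adjusted together include the D name, J name, length and inserted bases, given above as descriptions. Their small p-values can make the adjusted p of the other values smaller.

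Between the groups, doublet clonotypes held more counts each in CNS4KO and were fewer at equal beta counts, as held for beta clonotypes at large. Before that adjustment for depth their numbers overlapped, at 184 to 287 per library in CNS4KO and 229 to 339 in CNS4Flox. Cells per sample, and whether a count is a read or a molecule, are not given, so clone size is known only as counts. The CNS4KO replicates 1 to 5 had 1.56, 1.46, 1.29, 1.498 and 1.28 counts per doublet clonotype, and the CNS4Flox replicates, in that order, 1.155, 1.22, 1.23, 1.17 and 1.235. Every CNS4KO library lay above every CNS4Flox library, with means of 1.42 ± 0.125 and 1.20 ± 0.0369 (SD, n = 5 samples each, exact permutation p = 0.00794, the smallest it can give, adjusted p = 0.0317). The difference of 0.214 was 0.158 with libraries thinned to equal beta counts, 0.155 for CDR3s of 12 to 15 residues and 0.319 without clonotypes with a count of 1. None of these 3 values passed (exact permutation, adjusted p = 0.0873, 0.0952 and 0.829). Other beta clonotypes had 1.535 ± 0.139 counts each in CNS4KO and 1.24 ± 0.0718 in CNS4Flox. The ratio of doublets to others within a library, 0.925 ± 0.0747 in CNS4KO and 0.973 ± 0.0395 in CNS4Flox, did not pass the test (exact permutation p = 0.254, adjusted p = 0.730).

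Counts of 1 made up 76.8% ± 5.06 of doublets in CNS4KO and 86.2% ± 2.46 in CNS4Flox (SD, n = 5 samples each, exact permutation p = 0.00794, adjusted p = 0.0317), with other beta clonotypes at 74.4% ± 4.23 and 84.1% ± 3.08. At an equal depth of 19199 beta counts, 173.4, 184.0, 188.2, 176.4 and 184.7 doublets remained in CNS4KO and 214.6, 225.8, 193.5, 212.8 and 215.3 in CNS4Flox. The groups do not overlap (exact permutation p = 0.00794, adjusted p = 0.0317). All beta clonotypes at that depth numbered 12534.2 to 15205.7 in CNS4KO and 15629.5 to 16781.7 in CNS4Flox, and doublets were 1.33% and 1.31% of them. Without CNS4KO replicate 5 and CNS4Flox replicate 3, the differences in counts per doublet, share with a count of 1 and doublets at equal depth were 0.255, -11.2 points and -36.65, against 0.214, -9.41 points and -31.1 with all libraries. With 4 samples against 4 the exact permutation p cannot go below 0.0286, or 0.114 after adjustment here, so these values carry no usable test. For CDR3s of 12 to 15 residues the share with a count of 1 differed by -7.88 points (exact permutation p = 0.0238, adjusted p = 0.0952). Doublets at equal depth differed by -25.7 there (exact permutation p = 0.00794, adjusted p = 0.0952). After thinning to 19199 beta counts the share differed by -7.50 points (exact permutation p = 0.00794, adjusted p = 0.0873). In the last 2 cases the groups did not overlap, as the p is the smallest it can give. Such a p passes the adjustment only when other values are also near it, so these 2 misses show no loss of separation. By the same rule, counts per doublet, the share with a count of 1 and doublets at equal depth passed with all libraries only because they share the smallest p. They are computed from the same counts and are linked, so they are not separate results.

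The largest doublet clonotype of each library was small. The CNS4KO replicates 1 to 5 reached 11, 16, 7, 20 and 9 counts, and the CNS4Flox replicates, in that order, 6, 6, 12, 4 (3 clonotypes tied) and 10. The largest beta clonotype of any kind held 506. The highest share of beta counts was 0.0833% (95% Wilson interval 0.0513% to 0.135%), in CNS4KO replicate 2, by the VW clonotype printed above. By nucleotides, none of these 10 clonotypes occurred in another library. The largest by count and the largest of CNS4Flox are shown because they differ in origin: in the first neither doublet codon lies whole within a D match, and in the other the tryptophan does.
LI, CNS4KO replicate 4, 20 counts, TRBV31 with TRBD1 and TRBJ1-4: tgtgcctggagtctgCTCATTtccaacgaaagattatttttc
VW, CNS4Flox replicate 3, 12 counts, TRBV16 with TRBD2 and TRBJ2-1: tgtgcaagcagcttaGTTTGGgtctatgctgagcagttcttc
Among the 100 most abundant beta clonotypes of a library, doublets averaged 1.66 ± 1.93 in CNS4KO against 1.02 ± 0.849 in CNS4Flox (SD, n = 5 samples each, exact permutation p = 0.651, adjusted p = 0.781). Without CNS4KO replicate 2 the CNS4KO mean was 0.8295 and the difference of 0.646 became -0.188.

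Doublets were rarely found in more than 1 library. By V gene, J gene and CDR3 amino acids, 96 of 2446 doublet clonotypes (3.92%) were in at least 2 libraries, 6 in 3 and 1 in 4, while 10.6% of other beta clonotypes were shared and some reached all 10. Within a library, 7.75% ± 1.61 of doublets and 22.5% ± 1.17 of other clonotypes were found in another library (SD, n = 10), lower in 10 of 10 (exact sign-flip permutation p = 0.00195, the smallest it can give, adjusted p = 0.00342). Without CNS4KO replicate 5 and CNS4Flox replicate 3 the difference of -14.7 percentage points was -12.9 (exact sign-flip permutation, adjusted p = 0.0137). A shared clonotype counts in every library that holds it, so the library differences are linked. The sign-flip test treats them as independent, so its p-values here, and the 10 of 10, are not those of 10 separate observations. The shares found in another library were 7.77% ± 1.55 in CNS4KO against 7.74% ± 1.86 in CNS4Flox (SD, n = 5 samples each, exact permutation p = 0.984).

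Clonotypes with fewer inserted bases were shared more often, and doublets lay below the others up to 8 inserted bases. With 0 to 2 inserted bases, 16.04% ± 4.39 of doublets and 37.5% ± 1.52 of others were in another library (SD, n = 10). With 3 to 5 the shares were 6.11% ± 2.39 and 16.98% ± 1.23, and with 6 to 8 they were 1.23% ± 1.77 and 4.16% ± 1.15. With 9 or more, 0 of 102 doublets, which allows a share of up to 2.94%, and 26 of 3373 others were, so no order can be read in that class. Within a library, 0.392% of doublet amino acid clonotypes and 2.06% of the others were encoded by more than 1 nucleotide form. Of the 96 shared doublets, 56 were in both groups, 18 in CNS4KO alone and 22 in CNS4Flox alone, or 58.3%, 18.75% and 22.9%. Of the other beta clonotypes that were shared, 65.3% were in both groups, 15.8% in CNS4KO alone and 18.9% in CNS4Flox alone. The shares by inserted bases, by nucleotide form and by group were computed with all libraries only. They include CNS4KO replicate 5 and CNS4Flox replicate 3, whose many common clonotypes enter the share found in both groups.

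The most shared doublets are shown because most were written by different nucleotides in different libraries. LY joins TRBV16 to TRBJ2-7 in a CDR3 of 11 residues and occurred in 4 libraries with 5 counts in all.
LY, CNS4Flox replicates 1 and 2: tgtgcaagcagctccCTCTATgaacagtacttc
LY, CNS4Flox replicate 4: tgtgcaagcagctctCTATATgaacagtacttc
LY, CNS4KO replicate 1: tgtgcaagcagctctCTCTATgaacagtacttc
LF joins TRBV26 to TRBJ2-5 (F phenylalanine) and occurred in 3 libraries, in a nucleotide form of its own in each.
LF, CNS4Flox replicate 1: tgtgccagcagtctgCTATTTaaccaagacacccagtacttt
LF, CNS4KO replicate 3: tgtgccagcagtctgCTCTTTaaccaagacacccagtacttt
LF, CNS4KO replicate 4: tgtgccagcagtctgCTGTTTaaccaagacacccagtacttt
YW joins TRBV31 to TRBJ2-5 and was the same to the base in 3 libraries, among them both libraries that share many clonotypes.
YW, CNS4Flox replicates 1 and 3 and CNS4KO replicate 5: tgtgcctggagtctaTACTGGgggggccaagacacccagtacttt
At 3 libraries 6 doublets were tied and were ordered by their summed share of beta counts. The others of the 5 most shared were LY on TRBV20 with TRBJ2-1, in 3 nucleotide forms, and VW on TRBV13-1 with TRBJ2-7, in 2 forms. Next in that order came LV on TRBV31 with TRBJ2-5, in 3 forms, and VL on TRBV1 with TRBJ2-3, in 1 form. By nucleotides, 33 of 2525 doublet clonotypes were in at least 2 libraries and 2 were in 3.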

How the data were processed

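A deposited table holds 1 library. The authors give, per the file headers, a whole-number count, a fraction (the count over the library total), the CDR3, V, D and J names, and positions in bases, counted from 0, where the V, D and J matches end or start. Whether a count is a read or a molecule, the aligner and the clonotype caller are not given in the sources used here. The submitters' processing notes name mm10. Per the labels' protocols, RNA was reverse transcribed with chain primers and a template switch, then amplified.

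All rows carry TRB names although both chains were amplified, so beta rows were taken by CDR3 end. Ends PLYF were called TRBJ1-6, and 12 rows made identical by this were merged. Clonotypes are V gene, J gene and CDR3 nucleotides. Values per sample were tested by two-sided exact permutation, over 252 assignments of samples to groups, or 1024 sign assignments within libraries, with Benjamini-Hochberg adjustment. Numbers of distinct clonotypes per pair, V or J were tested with edgeR 4.0.16 (quasi-likelihood, beta clonotype total as library size, no TMM, features with at least 10 clonotypes in at least 5 libraries), with DESeq2 1.42.0 as an alternative, in R 4.3.3. Other steps used Python 3.11.15, pandas 2.3.3, numpy 2.4.6 and scipy 1.17.1. Procedures were tested on simulated data. Gene positions are RefSeq's for GRCm38, in which 36 of 36 gene names were found.

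Named pairs are the 6 commonest and, as none passed, the 2 with the smallest p. Named V genes are those with the 3 highest and lowest rates and the smallest p (TRBV17 is named too, since the order of the third differs between pooled and mean rates). The largest doublet of each library and the 5 most shared were also named. The members and lists were chosen with earlier results of these data known. Alternatives were other clonotype definitions, depth, lengths, J names, normalisations and filters, and leaving out samples. Amino acid sequences are not printed.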

Additional observations from a re-analysis of the deposited data

Results flagged for a closer look

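The share of TRBD2 among doublets with a named D was 76.0% in CNS4Flox replicate 4, while the other CNS4Flox libraries lay between 72.4% and 72.9%, a gap that sets this library apart from its group. CNS4KO replicate 2 had 5 doublets among its 100 most abundant beta clonotypes, against 0 to 1.32 in the other CNS4KO libraries. Over 24 groups checked in this way, chance alone is expected to set apart about 1 in 20.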

How the results depend on the processing

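The group differences called in the report (CNS4KO minus CNS4Flox) kept their direction under every alternative run, but not always an adjusted p under 0.05. Counts per doublet clonotype differed by 0.319 without clonotypes with a count of 1, 0.158 thinned to the smallest total, and 0.155 for CDR3s of 12 to 15 residues (exact permutation, adjusted p = 0.829, 0.0873 and 0.0952). It was 0.255 without CNS4KO replicate 5 and CNS4Flox replicate 3. The share with a count of 1 differed by -4.06 points with counts of at most 2, -7.50 thinned, -7.88 at 12 to 15 residues and -11.2 without that pair. Doublets at equal counts differed by -25.7 at 12 to 15 residues and -36.65 without the pair. The -7.50 points and the -25.7 kept the smallest p that 5 samples against 5 can give (exact permutation p = 0.00794). They missed the adjusted threshold only because too few other values were near that p. Leaving out each sample gave 0.179 to 0.248, -10.8 to -7.91 and -35.8 to -27.7, but with 4 samples against 5 the exact permutation p cannot go below 0.0159, or 0.0635 after adjustment, and with that pair left out not below 0.0286, or 0.114, so those fits say nothing about stability. Within libraries, counts per clonotype differed by -0.0929 to -0.0588 when a sample was left out and by -0.0661 without the pair, and the share with a count of 1 by 1.49 points without the pair.

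Of the 9 other group values, 6 changed sign under some alternative; the doublet share of clonotypes, the doublet share of counts and the ratio of doublet to other counts per clonotype did not. Without clonotypes with a count of 1, inserted bases differed by 0.111, sharing by -0.903, TRBJ2 share by 1.24 and TRBD2 share by -0.217. Sharing differed by -0.162 thinned, -0.132 at 12 to 15 residues and -0.0407 without the pair, TRBD2 share by -0.331 without the pair, and doublets among the top 100 by -0.375 at 12 to 15 residues. Leaving out samples gave -0.0427 to 0.0739 for length, -0.962 to 0.777 for sharing, -0.146 to 1.325 for TRBD2 share and -0.188 to 1.06 for the top 100.

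Doublet pairs, V and J features had 0 calls in every fit that tested them. Without clonotypes with a count of 1 no doublet pair or V feature was left to test. DESeq2 called 3 of 33 V features against 1, none a doublet. D match length, TRBJ2 clonotypes alone, J names and the pair left out within libraries, and windows without each sample were alternatives chosen after seeing the data. No paired analysis was possible because the labels carry no replicate numbers. The replicate numbers used here were assigned in the order of the samples within each group. Most doublets have a count of 1, so clone sizes and sharing are limited by depth.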
